A study of Rattus norvegicus with 4 samples.

Results

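The genes described here encode the nuclear subunits of the mitochondrial respiratory chain and of its ATP synthase, in lens capsules with lens epithelial cells (LECs) of rats after extracapsular clear lens extraction (ECLE). They were chosen by symbol alone: *Ndufa*, *Ndufb*, *Ndufc*, *Ndufs* and *Ndufv* genes for complex I, *Sdha* to *Sdhd* for complex II, *Uqcr* genes and *Cyc1* for complex III, *Cox4* to *Cox8* genes for complex IV, and *Atp5* genes for complex V. The rule found 80 genes among the 14217 genes that had a probe set with a single symbol, a probe set being the group of probes directed at a transcript. Of these, 35 belonged to complex I, 4 to complex II, 8 to complex III, 17 to complex IV and 16 to complex V. Each gene was read from its brightest probe set. The symbols took in *Cox6c-ps1*, which is named as a pseudogene, and *Atp5if1*, which encodes an inhibitor of the ATP synthase. *Ndufa4* was counted with complex I by its name, although its protein is known as a subunit of complex IV. *Ndufab1* did not match the rule and was read with another list, given below. Of the 13 subunits encoded by mitochondrial DNA, 0 were measured under the symbols used here. A further 7 probe sets carried the symbol of a subunit together with that of a close copy, and these were kept apart.

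ECLE takes out the content of the lens and leaves its capsule with LECs behind, and their growth over the capsule is the model of posterior capsule opacification in this study. Female albino SD rats underwent ECLE in both eyes at 7 weeks of age. Lens capsules with LECs were collected at day 0, when the surgery was completed, at 1 W (day 7, 8 weeks of age) and at 2 W (day 14, 9 weeks of age). RNA was measured on 4 arrays, 1 at day 0, 2 at 1 W that are labeled as biological replicates (replicates 1 and 2), and 1 at 2 W. All groups underwent the surgery, so day 0 is the control. The methods speak of 3 samples for each time and, in another place, of a larger number for each time, from right eyes. Only 4 arrays were labeled in all, and how eyes or animals were joined on an array is not stated in the sources used here.

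The inner mitochondrial membrane carries 5 complexes. Complexes I and II take electrons from NADH and succinate, complex III passes them from ubiquinol to cytochrome c, and complex IV passes them to oxygen. Complexes I, III and IV pump protons, and complex V, the ATP synthase, uses the proton gradient to make ATP. Nearly all subunits are encoded in the nucleus and imported. In the lens, the epithelium keeps its mitochondria, while fiber cells lose theirs as they mature.

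Values were deposited as linear intensities per probe set. Array means were 244.3 at day 0, 217.6 for replicate 1 and 210 for replicate 2 at 1 W, then 165 at 2 W. Arrays were therefore scaled by these means, the average named in the methods, and put on the log2 scale. All ratios below are log2 ratios to the single day 0 array on this scale, so those of 1 W and 2 W share it, and the 1 W value is the mean of both arrays. The array means of 1 W replicate 1, 1 W replicate 2 and 2 W lay 0.17, 0.22 and 0.57 log2 units below day 0, and this is how far unscaled ratios would be shifted. On the scaled arrays the median of the 10455 genes tested was -0.01 at 1 W and -0.21 at 2 W, the shifts to hold single values against. limma tested genes whose mean level reached the 40th percentile, and its only residual degree of freedom came from the 2 arrays at 1 W. Genes of lens epithelium marked the tissue. *Pax6*, a transcription factor of the lens and eye, had deposited intensities of 4029, 3316, 3283 and 1382, and *Cryaa*, an alpha crystallin, of 7430, 8439, 8741 and 8114, in the order day 0, 1 W replicates 1 and 2, and 2 W.

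Most of the subunits lay above day 0 after ECLE, by small amounts, and more so at 2 W than at 1 W. Of the 80, 77 were at or above the filter and were tested. At 1 W their median log2 ratio was 0.26 for replicate 1, 0.33 for replicate 2 and 0.31 in the mean of both (1.24-fold), and at 2 W it was 0.49 (1.40-fold). Relative to the median of all genes tested these were 0.32 at 1 W and 0.70 at 2 W, against 0.33 and 0.63 when all 80 were included without the filter. The 2 arrays at 1 W differed by a median of 0.11 log2 units over the subunits, against 0.18 over all genes tested. On each of the 3 arrays after ECLE, 61 of 77 subunits (79.2%) were above day 0, against 26.6% of all genes tested. Among those tested, *Sdhd*, *Sdha* and *Cox4i2* were below day 0 on each array, and so was *Cox7b2*, which was below the filter. The summed level of the 77 subunits, in multiples of the array mean, was 422 at day 0, 522 and 538 at 1 W, then 598 at 2 W. In such tissue RNA, fewer cells of a type and less RNA per cell cannot be told apart.

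None of the subunits passed limma after Benjamini-Hochberg adjustment over all probe sets tested, in either direction or at any time. With so few arrays, this does not show that their levels were those of day 0. The lowest adjusted p from limma among them was 0.141 at 1 W, 0.0577 at 2 W and 0.139 for 2 W against 1 W. Among all genes tested, 0.0478% were called higher at 1 W and 0.0478% at 2 W. By limma's unadjusted p under 0.05, 32 subunits were higher and 0 lower at 1 W, where 10.4% of all genes tested were higher and 8.92% lower. At 2 W, 41 subunits were higher and 3 lower by that measure, where 10.8% of all genes tested were higher and 22.0% lower. The 3 lower subunits were *Sdhc*, *Sdhd* and *Cox4i2*. Over 2.0-fold of day 0, the rule of the methods, lay 1 tested subunit at 1 W (4.95% of all genes tested) and 6 at 2 W (6.60%). Under 0.5-fold lay 0 at 1 W (3.71%) and 1 at 2 W (12.3%).

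At 2 W the direction of the subunits' median and the calls depended on the scaling, while at 1 W the median stayed above 0 (0.12 to 0.43) and limma called 0 subunits under each setting tried. In the intensities as deposited, without scaling, the median log2 ratio of the subunits was 0.12 at 1 W and -0.08 at 2 W, and 25 of those tested were above day 0 on each array, where 9.69% of all genes tested were. There limma called *Ndufv3* and *Atp5if1* higher at 2 W, where 2.33% of all genes tested were called higher. It called 5 subunits lower, *Sdha*, *Sdhc*, *Sdhd*, *Cox4i2* and *Atp5f1c*, where 42.2% of all genes tested were called lower. Of all 80 subunits, 18 turned in sign at 1 W and 36 at 2 W without scaling. When arrays were scaled by their median, limma called 18 subunits higher at 2 W (6.32% of all genes tested), and with the 75th percentile it called 6 (2.05%). The position of the subunits relative to all genes tested is not touched by a change of divisor, and was 0.27 at 1 W and 0.48 at 2 W after quantile scaling.

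The subunits were read by bright probe sets, and bright genes as a whole lay higher after ECLE than dim ones. Among the 1035 other genes within the 25th to 75th percentile of the subunits' mean log2 level (1.69 to 3.24), the median log2 ratio was 0.06 after 1 W and -0.04 after 2 W, and 37.6% were above day 0 on each array. When all genes tested were put in 10 classes of equal size by level, the class with the highest level held 52 of the 77 subunits and had a median log2 ratio of 0.13 after 1 W and 0.10 after 2 W. The subunits' medians of 0.31 and 0.49 lay above both.

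**Figure D1:**
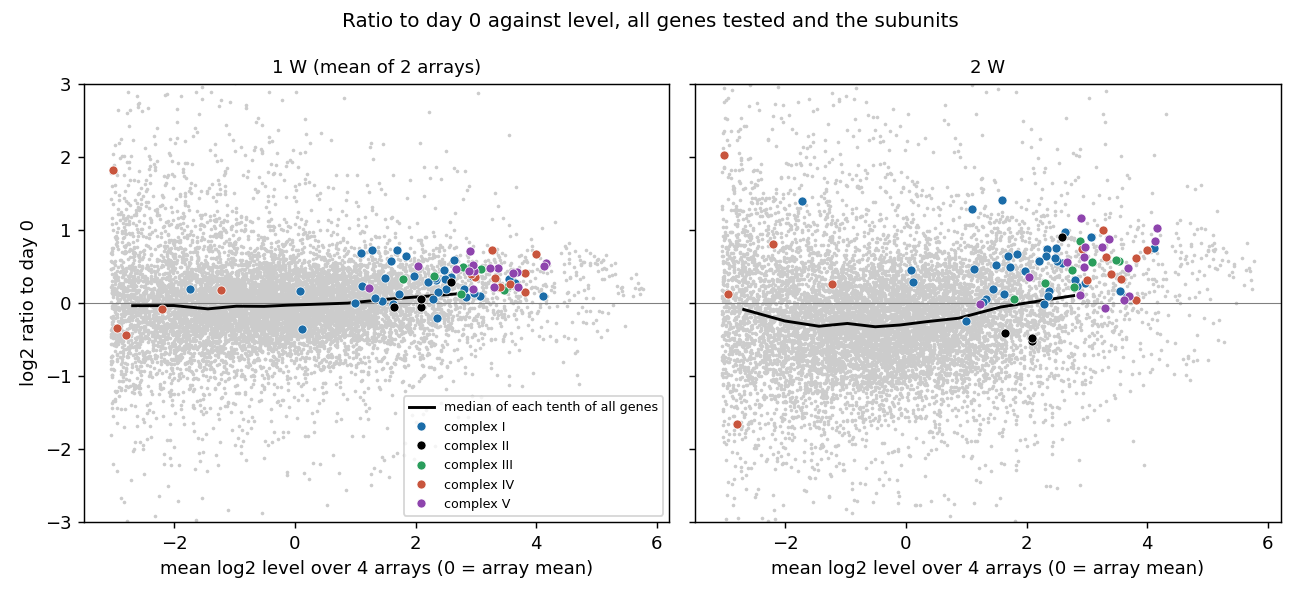
Log2 ratio to day 0 (vertical axis, cut at -3 and 3) against the mean log2 level over the 4 arrays (horizontal axis, 0 is the array mean) for the 10455 genes tested (grey) and the 77 subunits tested (colored by complex), at 1 W (left, mean of 2 arrays) and at 2 W (right). The black line joins the medians of 10 classes of all genes by level and ends at 0.13 at 1 W and 0.10 at 2 W, and most subunits lie above it at the bright end, while 3 of the 4 complex II subunits lie below it at 2 W.

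Promoters are shown because most subunits lay above day 0 together and because NRF1, GABPA (also called NRF2) and YY1 are transcription factors known for binding promoters of respiratory chain genes. RefSeq promoters of rat assembly GRCr8, 250 bases before to 50 after each gene's start, were at hand for 71 of the 80 subunits. The letters searched on both strands were GCATGCGC for NRF1, CCGGAAGT for GABPA and AAGATGGC for YY1. NRF1 letters were in 7 of the 71 promoters (9.86%), against 5.2% of the promoters of other genes tested and 2.66% of all 27457 promoters. GABPA letters were in 8 (11.3%), against 8.59% and 4.01%. YY1 letters were in 16 (22.5%), against 5.71% and 3.44%, and they occurred in subunits of each of the 5 complexes. The YY1 letters contain ATG, and whether a match lay on a start codon was not examined. A match is a run of letters, not a tested binding site. At least 1 of the 3 runs was in 26 subunit promoters (36.6%), against 18% of other genes tested. One promoter for each complex is printed, from 110 bases before to 25 after the start, on the gene's own strand and 5′ to 3′, with the matched letters in capitals. They lie at chr7:115750293-115750427 (minus strand, *Ndufa6*), chr13:86098001-86098135 (minus, *Sdhc*), chr8:118468113-118468247 (plus, *Uqcrc1*), chr1:213833599-213833733 (minus, *Cox8a*) and chr11:44657459-44657593 (minus, *Atp5po*), in GRCr8.
Ndufa6: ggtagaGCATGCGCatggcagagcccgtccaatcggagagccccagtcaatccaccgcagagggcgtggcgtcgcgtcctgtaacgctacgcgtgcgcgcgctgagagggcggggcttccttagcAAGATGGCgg
Sdhc: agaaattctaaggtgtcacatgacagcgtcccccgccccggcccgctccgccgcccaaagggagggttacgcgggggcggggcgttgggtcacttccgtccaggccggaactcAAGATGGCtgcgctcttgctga
Uqcrc1: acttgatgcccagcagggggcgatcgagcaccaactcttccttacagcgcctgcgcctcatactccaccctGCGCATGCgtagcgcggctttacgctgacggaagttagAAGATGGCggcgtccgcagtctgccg
Cox8a: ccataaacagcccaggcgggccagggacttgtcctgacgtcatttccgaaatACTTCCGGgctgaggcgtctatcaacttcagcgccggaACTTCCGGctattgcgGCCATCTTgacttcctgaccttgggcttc
Atp5po: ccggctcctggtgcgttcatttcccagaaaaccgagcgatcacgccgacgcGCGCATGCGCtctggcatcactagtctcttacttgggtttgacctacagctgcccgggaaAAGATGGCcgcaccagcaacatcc

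*Ndufa6* and *Uqcrc1* each hold NRF1 and YY1 letters, with *Uqcrc1* carrying the NRF1 letters on the other strand. *Sdhc* holds YY1 letters alone. *Cox8a* holds GABPA letters at a pair of places and YY1 letters, all on the other strand. In *Atp5po* the NRF1 letters of both strands overlap, which makes a run of 10 capitals, and YY1 letters follow after the start. The printed genes did not share a course after ECLE. The log2 ratio at 2 W was 0.61 for *Ndufa6*, 0.50 for *Atp5po*, 0.28 for *Uqcrc1*, 0.04 for *Cox8a* and -0.48 for *Sdhc*.

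Complex I, the NADH dehydrogenase, had a median log2 ratio of 0.24 after 1 W and 0.49 after 2 W over its 35 subunits, and 28 of them were above day 0 on each array. *Ndufb4*, an accessory subunit of the membrane arm, had deposited intensities of 3617 at day 0, 3535 and 3201 at 1 W, then 4114 at 2 W. Its log2 ratios were 0.13 and 0.04 at 1 W and 0.75 at 2 W (standard error 0.134, adjusted p = 0.0685 from limma), or 0.42 at 2 W after quantile scaling. The intensity at 2 W was the highest of the 4 even without scaling, but day 0 and 2 W are 1 array each. The standard error combines the pair at 1 W with the spread of that pair over other probe sets of like level. The difference of 2 W from 1 W was 0.66 (adjusted p = 0.142 from limma). *Ndufa1*, another accessory subunit, went 2757, 2915, 2913 and 1962 in intensity. Its log2 ratios were 0.25 and 0.30 at 1 W and 0.08 at 2 W. *Ndufa4* ran alike, and its log2 ratios were 0.37 and 0.29 at 1 W and 0.16 at 2 W. Without scaling, both genes were below day 0 at 2 W.

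The highest log2 ratios of complex I at 2 W were those of *Ndufa5*, *Ndufa4l2* and *Ndufv3*, and these were its subunits over 2.0-fold. *Ndufa5*, an accessory subunit of the arm that takes up NADH, had intensities of 475 at day 0, 760 and 504 at 1 W, then 850 at 2 W. Its arrays at 1 W lay apart (0.85 and 0.30), and its log2 ratio at 2 W was 1.41 (standard error 0.307, adjusted p = 0.0834 from limma). *Ndufv3*, an accessory subunit that sits near the NADH site, was picked for description after its values were seen. It had 328, 501, 427 and 540, and log2 ratios of 0.78 and 0.60 at 1 W and 1.28 at 2 W (standard error 0.185, adjusted p = 0.0597). A dim second probe set of *Ndufv3* did not share this and had -0.06 at 1 W and -0.22 at 2 W. Second probe sets of *Ndufa7* (-0.76 and -0.81) and *Ndufa9* (-0.37 and -0.55) also disagreed in sign with the brighter ones (0.37 and 0.43 for *Ndufa7*, 0.34 and 0.52 for *Ndufa9*).

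The core subunits, which include those that carry the redox centers of complex I, were closer to day 0 than the accessory ones. The core was set apart after the values were seen, and the difference was not tested. The 6 core subunits had medians of 0.13 at 1 W and 0.16 at 2 W, against 0.27 and 0.54 for the other 29. Of the core, 3 of 6 were above day 0 on each array, against 25 of 29. Apart from *Ndufv2* (92.4), the core lay at level percentiles of 76.7 to 85.8 among genes tested, dimmer than most of the others. The part of level in this difference was not tested. *Ndufs1*, which holds iron-sulfur clusters, had intensities of 508, 361, 547 and 288. Its arrays at 1 W fell on both sides of day 0 (-0.33 and 0.33), and its log2 ratio at 2 W was -0.25 (standard error 0.362), the lowest of complex I. *Ndufv1*, which binds NADH and flavin and was also chosen after its values were seen, had 460, 701, 626 and 312, that is 0.77 and 0.66 at 1 W but 0.01 at 2 W. The difference of 2 W from 1 W was -0.71 (adjusted p = 0.147 from limma). *Ndufb2*, an accessory subunit, was near day 0 throughout (-0.06, 0.17 and -0.02), and its sign turned with the replicate and the scaling.

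Complex II, succinate dehydrogenase, was split. *Sdhb*, the iron-sulfur subunit, had intensities of 1138 at day 0, 1206 and 1216 at 1 W, then 1430 at 2 W. Its log2 ratios were 0.25 and 0.31 at 1 W and 0.90 at 2 W (standard error 0.142, adjusted p = 0.0646 from limma), and the 2 W array was above the others even without scaling. The other 3 subunits were near day 0 at 1 W and below it at 2 W. *Sdha*, the flavoprotein that binds succinate, went 836, 693, 710 and 426 in intensity, and its log2 ratios were -0.10 and -0.02 at 1 W and -0.41 at 2 W (adjusted p = 0.178). *Sdhc*, a membrane anchor, went 1112, 1020, 990 and 539, with 0.04 and 0.05 at 1 W and -0.48 at 2 W (adjusted p = 0.125). *Sdhd*, the other anchor, went 1163, 1017, 937 and 549, with -0.03 and -0.09 at 1 W and -0.52 at 2 W (adjusted p = 0.117). A second probe set of *Sdhd* had -0.16 at 1 W and -0.51 at 2 W. At 2 W these signs were the same under all scalings tried, with *Sdhb* between 0.33 and 1.21, *Sdha* between -0.97 and -0.09, *Sdhc* between -1.04 and -0.16, and *Sdhd* between -1.08 and -0.20. At 1 W the signs of *Sdha*, *Sdhc* and *Sdhd* turned with the scaling. The median of complex II was -0.01 at 1 W and -0.44 at 2 W, which is -0.23 relative to all genes tested.

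**Figure D2:**
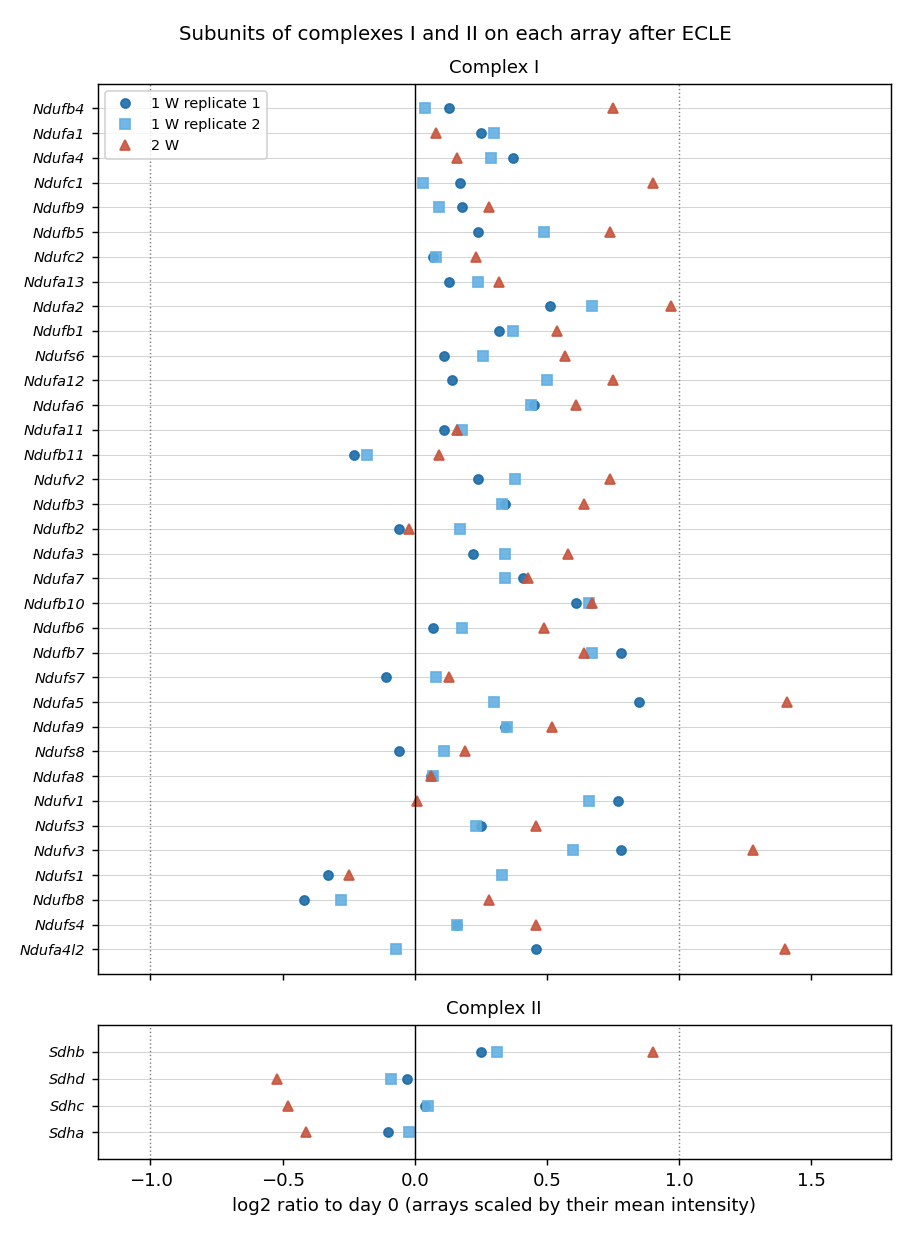
Log2 ratio to day 0 (horizontal axis) for the 35 subunits of complex I and the 4 of complex II on each array after ECLE, ordered by mean level from the top; circles and squares are replicates 1 and 2 at 1 W, triangles are 2 W, and dotted lines mark 2.0-fold and 0.5-fold. In complex I 33 of 35 triangles lie right of 0, where 3918 of the 10455 genes tested were above day 0 at 2 W. In complex II the triangle of *Sdhb* lies at 0.90 and the other 3 between -0.52 and -0.41.

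Complex III, the cytochrome bc1 complex, was above day 0 with all 8 subunits at 2 W and with 7 of 8 on each array. Of the 10455 genes tested, 3918 were above day 0 at 2 W and 2779 on each array. Its median log2 ratio was 0.35 after 1 W and 0.51 after 2 W. *Uqcrh*, the hinge protein, had intensities of 2349 at day 0, 2578 and 2279 at 1 W, then 2364 at 2 W, and log2 ratios of 0.30, 0.17 and 0.58. *Uqcr10*, a small subunit, had 2304, 2256, 2315 and 2341, and log2 ratios of 0.14, 0.23 and 0.59. For both, the unscaled intensities hardly differed between arrays, and the ratios come largely from the lower array means after ECLE. *Uqcrfs1*, the Rieske iron-sulfur protein, had 0.48 and 0.46 at 1 W and 0.56 at 2 W (standard error 0.135, adjusted p = 0.0926 from limma). *Uqcrq*, a ubiquinone-binding small subunit, had the highest value at 2 W, 0.85 (standard error 0.174, adjusted p = 0.0769), after 0.36 and 0.59 at 1 W. *Cyc1*, cytochrome c1, had intensities of 751, 810, 842 and 526. Its log2 ratios of 0.28 and 0.38 at 1 W gave way to 0.05 at 2 W, the lowest of the complex. *Uqcr11* likewise had 0.40 and 0.59 at 1 W and 0.22 at 2 W. A second probe set of the core protein gene *Uqcrc2* had -0.24 at 1 W, against 0.12 for the brighter one, and 0.52 against 0.46 at 2 W.

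Complex IV, cytochrome c oxidase, had 14 of its 17 genes tested, with a median log2 ratio of 0.30 after 1 W and 0.51 after 2 W and 11 of 14 above day 0 on each array. *Cox5b*, which binds zinc and faces the matrix, had intensities of 1535 at day 0, 2290 and 2141 at 1 W, then 2068 at 2 W, all above day 0 without scaling. Its log2 ratios were 0.74 and 0.70 at 1 W (standard error 0.116, adjusted p = 0.141 from limma) and 1.00 at 2 W (standard error 0.134, adjusted p = 0.0577), just under 2.0-fold. *Cox6c*, a small membrane subunit, had 2714, 4097, 3500 and 3031, and log2 ratios of 0.76, 0.59 and 0.73. *Cox7b* had 0.31 and 0.51 at 1 W and 0.62 at 2 W. *Cox7a2l*, known for its part in joining complexes III and IV into supercomplexes, had 0.36 on both arrays at 1 W and 0.32 at 2 W. *Cox8a* stayed close to day 0 throughout (0.07, 0.22 and 0.04), and its sign turned without scaling at both times and after quantile scaling at 2 W.

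The isoforms of cytochrome c oxidase known for particular tissues were dim, and their log2 ratios lay on both sides of day 0. Their difference from the widely expressed forms was not tested. *Cox4i1*, the common form of subunit 4, had intensities of 2487, 2727, 2492 and 2112, and log2 ratios of 0.30, 0.22 and 0.33. *Cox4i2*, known from lung and from cells short of oxygen, had 54.4, 40.6, 30.3 and 11.6, and log2 ratios of -0.26 and -0.63 at 1 W and -1.66 at 2 W (0.316-fold, standard error 0.502, adjusted p = 0.124 from limma). It was the only tested subunit under 0.5-fold at 2 W. *Cox6b1*, the common form of subunit 6b, had 1425, 1626, 1646 and 1605, and log2 ratios of 0.36, 0.43 and 0.74. *Cox6b2*, known from testis, had 11.4 at day 0, 44.6 and 27.7 at 1 W, then 31.3 at 2 W. Its log2 ratios of 2.14, 1.51 and 2.03 (standard error 0.599 at 2 W, adjusted p = 0.12) made it the only tested subunit over 2.0-fold on each array. Both isoforms were dim, near the filter on low values, and how far their intensities were above background is unknown because no detection calls were used here.

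*Cox7a1*, known from heart and skeletal muscle, had intensities of 34.9, 22.7, 25.3 and 25.6, and log2 ratios of -0.45, -0.25 and 0.12. The muscle forms *Cox6a2* and *Cox8b* and the testis form *Cox7b2* were below the filter and were not tested. *Cox8b* had intensities of 19.8, 36.9, 29.7 and 10.8, *Cox6a2* of 2.71, 3.06, 6.79 and 1.15, and *Cox7b2* of 11.5, 7.2, 0.661 and 5.44. In *Cox6a2* and *Cox7b2* the arrays at 1 W differed from each other by more than their mean differed from day 0. *Cox6a1*, the common partner of *Cox6a2*, had 2233, 2181, 2356 and 1989, and log2 ratios of 0.13, 0.30 and 0.40. Among markers of skeletal and heart muscle, 5 of 15 were at or above the filter, the summed level of the list was 8.73 at day 0, 7.01 and 7.77 at 1 W, then 11.9 at 2 W, and *Mb*, myoglobin, was between 2.02 and 3.91 in intensity on all arrays. The sum was mostly that of *Myh1* (1828, 1071, 1301 and 1573), while *Acta1* (20.6, 72.2, 60 and 32.6), *Actn3* (38.4, 70.8, 52 and 60.2) and *Ckm* (59.2, 146, 94.2 and 194) were above day 0 on each array. Of the 15 measured, 4 were above day 0 on each array and 2 below, *Actn2* and *Tnnt3*, both under the filter. The tested *Tnni2* had log2 ratios of -0.26 and 0.00 at 1 W and -0.50 at 2 W. Over the 5 tested, the median log2 ratio was 0.85 after 1 W and 1.22 after 2 W. The part of muscle cells in these isoforms was not tested. In complex I, *Ndufa4l2*, a relative of *Ndufa4* known to be induced when oxygen is low, had 54, 66.3, 44.1 and 96, and log2 ratios of 0.46 and -0.07 at 1 W and 1.40 at 2 W (standard error 0.404, adjusted p = 0.117). Its value at 1 W turned to -0.07 without replicate 1.

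**Figure D3:**
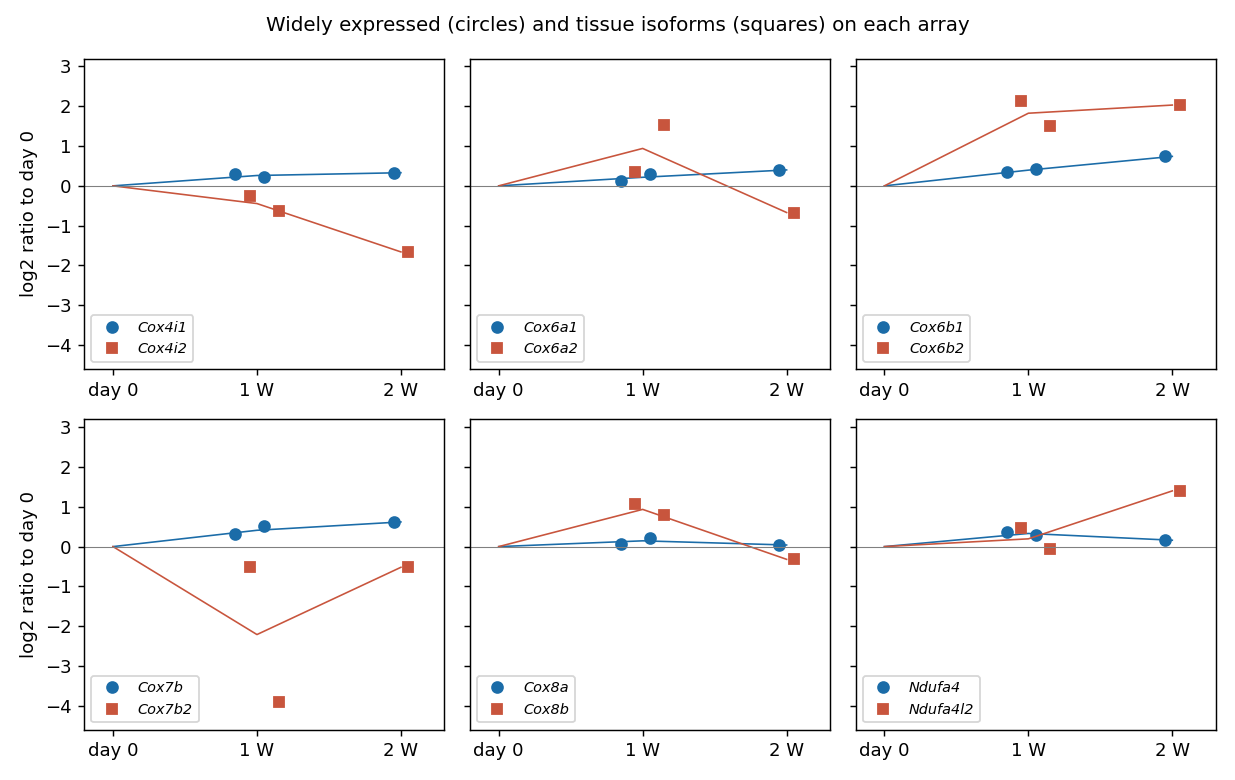
Log2 ratio to day 0 (vertical axis) of pairs of a widely expressed subunit (circles) and its tissue isoform (squares) by time after ECLE; each symbol is an array and lines join day 0, the mean of the 2 arrays at 1 W, and 2 W. The circles stay between 0.04 and 0.74, while the squares range from -3.91 for *Cox7b2* on a 1 W array to 2.14 for *Cox6b2*; *Cox6a2*, *Cox7b2* and *Cox8b* were below the filter.

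Complex V, the ATP synthase, had the highest median of the complexes on each array scaled by its mean, 0.43 and 0.49 at 1 W and 0.53 at 2 W. All 16 genes were above day 0 on both arrays at 1 W, and 14 of them also at 2 W. Of the 10455 genes tested, 4147 were above day 0 on both arrays at 1 W, and 2779 of them also at 2 W. *Atp5f1e*, the epsilon subunit of the F1 head, had intensities of 3036 at day 0, 3780 and 3948 at 1 W, then 4165 at 2 W, each above day 0 without scaling. Its log2 ratios were 0.48 and 0.60 at 1 W and 1.02 at 2 W (standard error 0.138, adjusted p = 0.0577 from limma). *Atp5f1b*, the catalytic beta subunit, had 3101, 4074, 3624 and 3761, and log2 ratios of 0.56, 0.44 and 0.84 (adjusted p = 0.0649 at 2 W). *Atp5if1*, the inhibitor that binds the head when the matrix turns acid, had 1171, 1747, 1614 and 1776, and log2 ratios of 0.74 and 0.68 at 1 W (adjusted p = 0.142) and 1.17 at 2 W (standard error 0.139, adjusted p = 0.0577). It was called higher at 2 W in the intensities as deposited and after median or 75th percentile scaling. Its other 2 probe sets were dim, with 0.57 and 0.02 at 1 W and 0.44 each at 2 W.

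Other genes of the ATP synthase were above day 0 at 1 W and near it at 2 W. *Atp5f1c*, the gamma subunit that turns inside the head, had intensities of 2258, 2279, 2336 and 1449, and log2 ratios of 0.18, 0.27 and -0.07. *Atp5mc3*, a gene for the c subunit of the rotating ring, had 0.15, 0.30 and 0.09. *Atp5me*, the small subunit e, had 0.12, 0.29 and -0.01. The signs of these genes at 2 W turned under some scalings. Within the F1 head, 5 subunits had medians of 0.47 at 1 W and 0.57 at 2 W, against 0.44 and 0.50 for the other 11, a split that was also made after the values were seen.

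**Figure D4:**
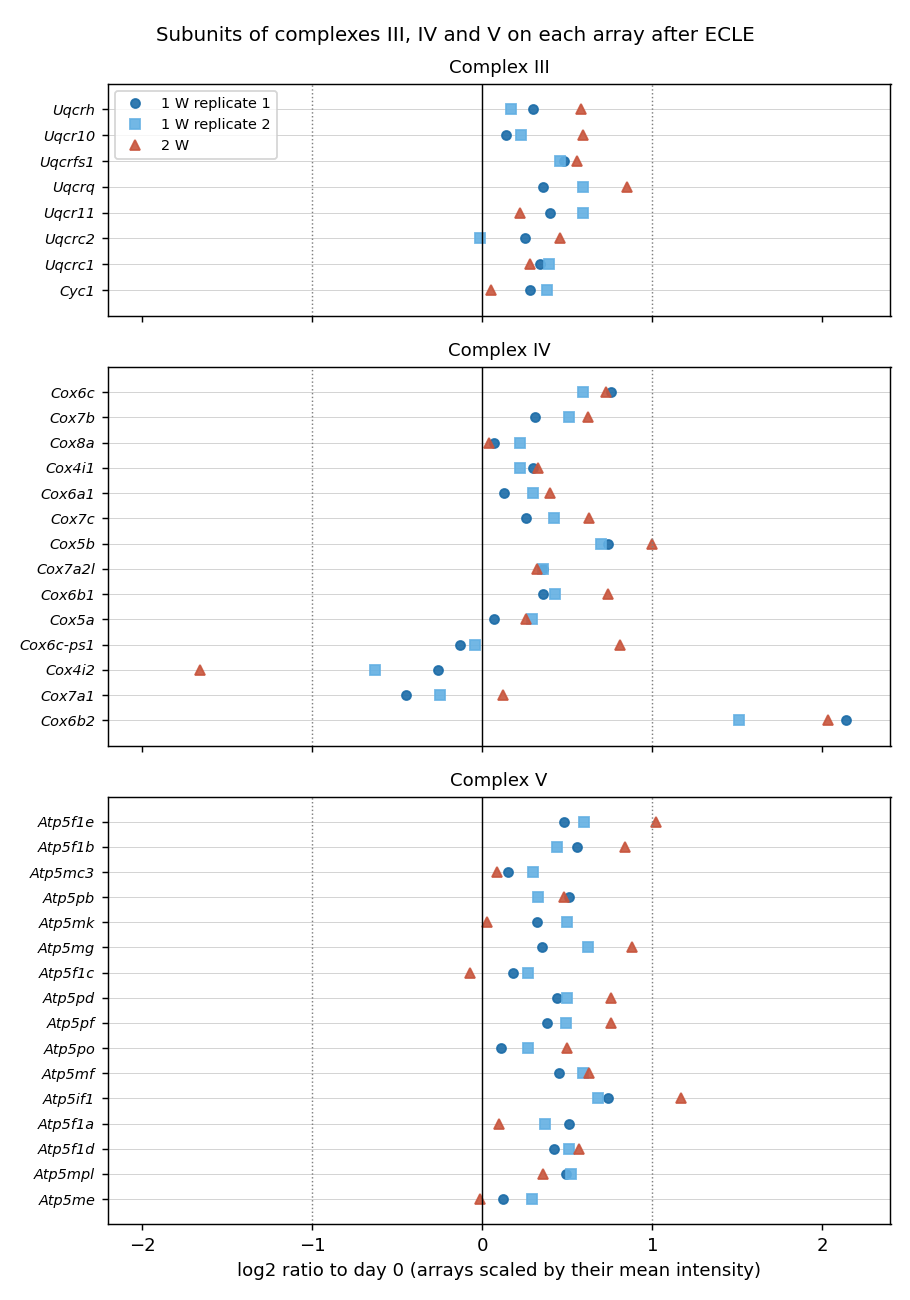
Log2 ratio to day 0 (horizontal axis) for the 8 subunits of complex III, the 14 tested of complex IV and the 16 of complex V on each array after ECLE, ordered by mean level from the top; circles and squares are replicates 1 and 2 at 1 W, triangles are 2 W, and dotted lines mark 2.0-fold and 0.5-fold. Most symbols lie between 0 and 1, with *Cox6b2* near 2 on each array and the 2 W value of *Cox4i2* at -1.66.

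Set side by side, the complexes kept nearly the same order on the 3 arrays. On both arrays at 1 W the medians ran V, III, IV, I and II from the highest. At 2 W they ran V, IV, III, I and II, where the first 4 lay between 0.49 and 0.53. With 1 array at 2 W, the spread of the differences between complexes is unknown there, so the order of these 4 could not be settled. The 2 arrays at 1 W differed by 0.05 to 0.07 log2 units in the medians of complexes I, III, IV and V. Each was higher on replicate 2, so this does not measure the spread between complexes. After quantile scaling complex I, and not complex V, had the highest median at 2 W. At 1 W the medians of complexes I, III, IV and V ran from 0.24 for complex I to 0.45 for complex V. Complex II was the exception at both times. Moving *Ndufa4* and *Ndufa4l2* to complex IV left the median of complex I relative to all genes tested at 0.25 at 1 W and 0.70 at 2 W.

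Between 1 W and 2 W, 50 subunits were higher at 2 W than on both arrays at 1 W, and 19 were lower than on both, where 24.2% of all genes tested were higher and 58.1% lower. By limma's unadjusted p under 0.05, 15 were higher and 5 lower, where 6.02% of all genes tested were higher and 18.7% lower. Complex I held 8 of the 15 and complex II 2 of the 5. *Ndufc1*, an accessory subunit of complex I, had the lowest adjusted p of the subunits for this comparison (0.139 from limma) and was named for that reason. Its intensities were 1700 at day 0, 1701 and 1487 at 1 W, then 2149 at 2 W, and its log2 ratios were 0.17, 0.03 and 0.90. No subunit passed limma for 2 W against 1 W on the scaled arrays, while 10 were called lower in the intensities as deposited, where the whole 2 W array is lower and 26.5% of all genes tested were called lower.

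The 7 probe sets that share a symbol with a close copy gave log2 ratios within the range of the subunits, although they cannot be assigned to 1 gene. At 2 W their log2 ratios were 1.05 for *Ndufs5* or a pseudogene, 0.88 for *Uqcrb* or *Uqcrbl1*, 0.71 for *Cox5a* or an unnamed locus, 0.69 for *Atp5mc2* or *Atp5mc2l1*, 0.42 for *Cox7a2* or *Cox7a2l2*, 0.14 for *Ndufa10* or *Ndufa10l1*, and -0.01 for *Atp5mc1* or *Atp5mc1l1*. The bright shared probe set of *Cox5a* had 0.44 at 1 W, against 0.18 at 1 W and 0.26 at 2 W for the dim one that represents the gene here.

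Other mitochondrial genes were read from lists written with earlier results of these data known, and limma called 0 genes of these lists at either time. The 73 mitochondrial ribosomal proteins had medians of 0.30 at 1 W, like the subunits, and 0.20 at 2 W, and at an unadjusted p under 0.05 the list held 17 higher genes and 1 lower at 1 W, against 17 and 3 at 2 W. Over all genes tested these shares were 10.4% higher and 8.92% lower at 1 W, and 10.8% and 22.0% at 2 W, and the counts of the lists that follow stand beside the same shares. *Mrpl17* had 0.57 and 0.70, and *Mrpl23* had 0.71 and 1.03, at 1 W and 2 W. The list of 10 mobile carriers and adenine nucleotide exchangers had 0.43 and 0.40. It also held *Etfa*, *Etfb*, *Etfdh* and *Ndufab1*, a gene of the *Nduf* family outside the symbol rule, which had 0.63 and 0.88. *Slc25a4*, which exchanges ADP and ATP across the inner membrane, had 0.46 at both times, and *Vdac3*, a channel of the outer membrane, had 0.31 and 0.80. The 13 assembly factors of complex I had 0.19 and 0.23, while the 28 of complexes II to V had -0.10 and -0.27. Among the former, *Tmem126b* had 0.26 and 0.70 and *Timmdc1* -0.06 and -0.12. Among the latter, *Coa5* had -0.24 and 0.45, *Uqcc2* had 0.36 and 1.07, and *Sdhaf2*, which attaches flavin to *Sdha*, had -0.12 and -0.57. At an unadjusted p under 0.05, 6 genes of the carrier list were higher at 1 W and 5 at 2 W, and 0 were lower. *Ndufab1* was among the higher ones at both times. Of the assembly factors of complex I, 0 were higher at 1 W and 3 at 2 W, and of those of complexes II to V, 2 were higher at 1 W, with 3 higher against 7 lower at 2 W. *Sdhaf2* lay outside the rule for naming genes and was picked after its values were seen.

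Genes of pyruvate dehydrogenase and the citric acid cycle (14 tested) had medians of 0.24 at 1 W and 0.16 at 2 W. *Pdha1*, a subunit of pyruvate dehydrogenase, had intensities of 808, 1047, 932 and 1259, and log2 ratios of 0.54 and 0.42 at 1 W and 1.21 at 2 W (adjusted p = 0.0577 from limma). *Suclg2*, of succinyl-CoA ligase, had -0.20 at 1 W and -0.44 at 2 W. The 22 import genes of the Timm and Tomm families had 0.09 at both times, with *Tomm20* at 0.10 and -0.14 and *Tomm7* at 0.66 and 0.36. The 16 regulators of mitochondrial DNA and biogenesis had -0.10 and -0.23, close to the median of all genes tested at 2 W. The factors whose letters were searched in the promoters were on the lower side of day 0 at both times, *Nrf1* with -0.26 and -0.23, *Gabpa* with -0.23 and -0.30, and *Yy1* with -0.18 and -0.14, and none passed limma. The median of all genes tested was -0.01 and -0.21, so at 2 W *Nrf1* was near it and *Yy1* above it. *Nrf1* and *Yy1* have 3 and 4 probe sets, of which only the brightest was read. *Ppargc1a* and *Polrmt*, which had the lowest log2 ratios of these regulators at 2 W, were picked after their values were seen, and *Tfb1m* had the highest there (0.66). *Ppargc1a*, a coactivator of mitochondrial genes, had intensities of 112, 92.2, 118 and 38.5, with 0.09 at 1 W and -0.98 at 2 W (adjusted p = 0.148). *Polrmt*, the mitochondrial RNA polymerase, had -0.54 and -1.10 (adjusted p = 0.131 at 2 W). Genes of fusion, fission and mitophagy (10) had -0.13 and 0.23, with *Bnip3l* at -0.10 and 0.23 and *Bnip3* at -0.12 and 0.49. The 18 glycolysis genes had 0.04 and 0.09, with *Pgk1* at -0.12 and 0.72 and *Aldoc* at 0.06 and 0.33. At 1 W and an unadjusted p under 0.05, the pyruvate dehydrogenase and citric acid cycle list had 6 genes higher and 0 lower. The import list had 5 and 1, the regulators 1 and 0, the fusion list 0 and 0, and glycolysis 2 and 2. Over all genes tested 10.4% were higher and 8.92% lower. At 2 W the pyruvate dehydrogenase and citric acid cycle list had 2 higher and 1 lower. The import list had 1 and 2, the regulators 0 and 3, the fusion list 0 and 1, and glycolysis 3 and 5. Over all genes tested 10.8% were higher and 22.0% lower.

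A shift of this kind was not limited to mitochondrial genes. The 45 cytosolic ribosomal proteins had medians of 0.53 at 1 W and 0.70 at 2 W, above those of the subunits at both times, and at each time 38 of them were higher, and 0 lower, by an unadjusted p under 0.05. The 37 proteasome subunits had 0.37 and 0.38. The differences between these lists were not tested.

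**Figure D5:**
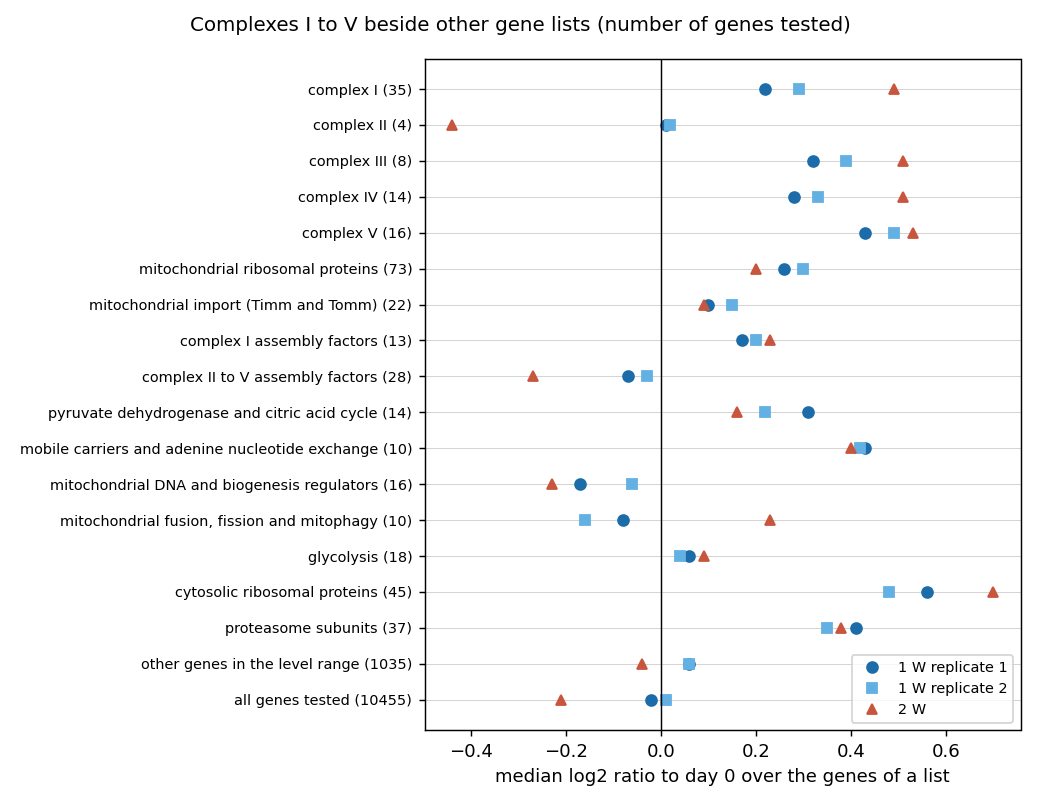
Median log2 ratio to day 0 (horizontal axis) over the tested genes of each complex and of other gene lists (vertical axis, number of genes tested in brackets) on each array after ECLE; circles and squares are replicates 1 and 2 at 1 W, triangles are 2 W. Complexes I, III, IV and V lie between 0.22 and 0.53, cytosolic ribosomal proteins higher on each array except for complex V on replicate 2 at 1 W, and complex II at -0.44 at 2 W.

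Markers of several cell types differed over the same arrays. The summed level of photoreceptor markers was 65 array means at day 0, 6.48 and 27.4 at 1 W, then 8.6 at 2 W, and 13 of 13 measured were lower on each array. Macrophage markers had 2.67, 18.1, 13.9 and 9.77 (11 of 12 above day 0 on each array), smooth muscle and myofibroblast markers 1.57, 18.4, 8.78 and 8.56 (8 of 8), and pigment cell markers 11, 67.7, 24.3 and 37.2 (6 of 7). Fibroblast markers had 20.2, 48.7, 21.2 and 47.7 (4 of 7). Lens fiber markers had 179, 217, 184 and 392 (6 of 9), and lens epithelium markers 224, 212, 209 and 196 (2 of 11 above and 7 below). The median log2 ratio of the lens epithelium list was -0.25 at 1 W and -0.98 at 2 W. At 2 W, 5 of its 11 genes were under 0.5-fold, against 12.3% of all genes tested. Its bright crystallins *Cryaa* and *Cryab* had 0.69 and 0.61 at 2 W, so the sum fell less than the median. The arrays at 1 W, which differed by a median of 0.11 log2 units in the subunits, thus differed several-fold in photoreceptor and pigment cell markers. Control probes for beta-actin near its 3′ end, divided by those near its 5′ end, follow RNA integrity and gave 2.32 at day 0, 1.89 and 1.9 at 1 W, then 1.61 at 2 W. For *Gapdh* it was 1.16, 1.12, 1.18 and 1.1. The part of cell makeup and of RNA integrity in the subunit values was not tested.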

How the data were processed

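RNA of lens capsules with LECs was biotin-labeled and hybridized to 4 Affymetrix rat arrays. The authors scanned them and made probe set values with Affymetrix Expression Console, which the submitters' processing notes also name, and deposited linear intensities from 0.0183 to 14184. How probes were summarised, to what target arrays were scaled, if at all, and how many eyes an array holds are not given in the sources used. The labels call the 2 arrays at 1 W biological replicates. The p-values rest only on the spread between this pair, over the gene's own and other probe sets.

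From the deposited intensities, 57 control probe sets were left out, and log2 values of the arrays over their means were computed. The filter kept the 18625 of 31042 probe sets that reached the 40th percentile of mean level. limma 3.58.1 (R 4.3.3) fitted 3 group means with lmFit and an eBayes trend, two-sided, and p was adjusted by Benjamini-Hochberg with a threshold of 0.05. There were 1 residual and 3.12 prior degrees of freedom. limma was first tested on simulated data, where it recovered most of the largest changes but hardly any as small as most ratios here. Symbols came from the platform annotation, 1 brightest probe set a gene, and all 80 were the same in RefSeq. Python 3.11.15 with pandas 2.3.3 and numpy 2.4.6 made the tables, and matplotlib 3.10.9 the figures. Promoters are those of RefSeq, assembly GRCr8.

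The subunits and lists were chosen with earlier results of these data known. Subunits named by rule were all of complex II, the 3 brightest and the 2 highest and 2 lowest at 2 W of each other complex, tissue isoforms, and any past limma or past the fold rules on each array. Of other mitochondrial lists the 2 brightest genes were named, and genes beyond these rules were picked after their values were seen or for the promoter letters. Alternatives were median, 75th percentile and quantile scaling, no scaling, a floor at the 20th percentile, no filter or a 60th percentile filter, genes in place of probe sets, the mean over a gene's probe sets, limma without a trend or robust, the arrays after ECLE as 1 group, a linear mean of the 1 W arrays, and omission of either 1 W replicate. With 4 arrays the precision is limited by their number.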

Additional observations from a re-analysis of the deposited data

Results flagged for a closer look

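In 9 of the 80 subunits both arrays at 1 W lay on one side of day 0 and the 2 W array on the other. Such turns were not particular to the subunits. Of the 10455 genes tested, 4147 were above day 0 on both arrays at 1 W and 2779 on all 3 arrays. Of the 77 subunits tested these were 64 and 61. The share of all genes that turned from below to above was not counted. The log2 ratio of 2 W minus that of 1 W was -0.52 for *Sdhc*, -0.30 for *Atp5f1c*, -0.22 for *Atp5me* and 0.47 for *Cox7a1*, and limma did not call any of them for 2 W against 1 W (adjusted p = 0.159, 0.254, 0.459 and 0.562). It was 0.30 for *Ndufb11*, 0.63 for *Ndufb8* and 0.89 for *Cox6c-ps1*, which lay below day 0 at 1 W and above it at 2 W and were not called either (adjusted p = 0.264, 0.178 and 0.222). It was -1.25 for *Cox8b* and -1.61 for *Cox6a2*, which were below the filter on low values, so their difference was not tested. *Atp5me* was at -0.01 at 2 W and *Cox7a1* at 0.12, close to day 0. No group had enough arrays to look for one that stood apart from its replicates.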

How the results depend on the processing

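With median scaling the median log2 ratio of the subunits was 0.43 at 1 W and 0.76 at 2 W, 21 subunits were over 2.0-fold at 2 W (10.6% of all genes tested) and limma called 18 higher at 2 W. With 75th percentile scaling these were 0.38, 0.80, 22 (11.5%) and 6. With values as deposited the medians were 0.12 and -0.08, 1 subunit was over 2.0-fold (2.89%) and 3 were under 0.5-fold (36.4%) at 2 W, 25 were above day 0 on each array, and limma called 2 higher and 5 lower at 2 W and 10 lower for 2 W against 1 W. The divisor alone differs between these settings. With quantile scaling the medians relative to all genes tested were 0.27 for the subunits, -0.03 for complex II, 0.33 for III, 0.24 for IV and 0.40 for V at 1 W, and 0.48 for the subunits, 0.55 for complex I, -0.34 for II, 0.38 for III, 0.42 for IV and 0.48 for V at 2 W. Without the filter they were 0.35 for complex IV at 1 W, and 0.63 for the subunits, 0.65 for complex I, -0.28 for II, 0.67 for III, 0.49 for IV and 0.69 for V at 2 W. A 60th percentile filter gave 0.35 for complex IV at 1 W, and the mean over all probe sets 0.21 for complex I at 1 W. Leaving out either 1 W replicate gave, at 1 W, 0.26 to 0.33 for the median of the subunits and, relative to all genes tested, 0.28 to 0.32 for the subunits, 0.24 to 0.28 for complex I, 0.01 to 0.03 for II, 0.30 to 0.32 for IV and 0.46 to 0.49 for V. limma could not be fitted then, as no residual degree of freedom remains. These medians and the count above day 0 on each array under other settings were added after seeing the data, in part: the count, the medians that are not relative to all genes, and the comparison with genes of like level. In the other settings limma called 0 subunits, as on the scaled arrays.

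Single subunits turned in sign as follows. At 2 W *Atp5f1c* had 0.20 and 0.24, *Atp5me* 0.26 and 0.30, *Ndufb2* 0.25 and 0.30 and *Ndufs1* 0.02 and 0.07 under median and 75th percentile scaling, and at 1 W *Sdha* had 0.06 and 0.02 and *Sdhd* 0.06 and 0.02. Under quantile scaling at 2 W *Atp5mc3* had -0.10, *Atp5me* 0.18, *Cox8a* -0.22, *Ndufa1* -0.10 and *Ndufb2* 0.06, and at 1 W *Ndufb4* had -0.02. *Cox6c-ps1* had 0.04 at 1 W under median and quantile scaling. With values as deposited at 2 W *Atp5mc3* had -0.48, *Cox4i1* -0.24, *Cox6a1* -0.17, *Cox7a1* -0.44, *Cox7a2l* -0.25, *Cox8a* -0.53, *Cyc1* -0.51, *Ndufa1* -0.49, *Ndufa4* -0.40, *Uqcr11* -0.34 and *Uqcrfs1* -0.01, and of the subunits picked later *Atp5po* -0.07, *Cox5a* -0.31, *Ndufa7* -0.13, *Ndufa9* -0.05, *Ndufb11* -0.47, *Ndufb8* -0.29, *Ndufv1* -0.56, *Uqcrc1* -0.29 and *Uqcrc2* -0.11, and at 1 W *Cox8a* had -0.05, *Ndufb2* -0.13, *Ndufb4* -0.10, *Sdhc* -0.15, *Uqcr10* -0.01, *Cox5a* -0.02, *Ndufc1* -0.10 and *Uqcrc2* -0.07. With the floor *Cox6a2* had -0.12 at 1 W. Without a 1 W replicate *Ndufa4l2* had -0.07 to 0.46 and *Ndufb2* -0.06 to 0.17, and without replicate 1 *Uqcrc2* had -0.01. No paired analysis was possible because only 1 W has more than 1 array. No detection calls were used here, so the signal of dim subunits over background is unknown.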
